A study of Homo sapiens with 6 samples.

Results

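The genes described here are 9 components of the mitogen-activated protein (MAP) kinase cascades, namely the MAP kinases MAPK8, MAPK9, MAPK3 and MAPK14 and the MAP kinase kinases (MAP2Ks) MAP2K1, MAP2K2, MAP2K3, MAP2K4 and MAP2K7. They were chosen by gene symbol, as kinases of the JNK, ERK and p38 branches with their MAP2Ks, from 60662 genes listed in each library. Earlier results of these data were known when they were chosen. They do not cover these branches in full, and MAPK10, MAPK11, MAPK12, MAPK13 and MAP2K6 are described separately below. All 9 passed the filter on low values, together with 16901 genes in all. The libraries came from HCT116, an established human colorectal cancer cell line, grown in McCoy's 5a medium with fetal bovine serum. Cells were stably transduced by lentivirus with a pLKO.1 puro vector carrying either a non-targeting short hairpin RNA (shCtrl, genotype WT in the labels, 3 libraries) or shRNA 2 against the long noncoding RNA GMDS-AS1 (GMDS-AS1 KD, 3 libraries). Poly-A RNA was sequenced, and the comparison asks which genes change when GMDS-AS1 is depleted. Both groups carried the puromycin-resistance vector, 1 cell line and 1 of the hairpins against GMDS-AS1 were sequenced, and each group holds biological replicates 1 to 3.

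MAP kinase cascades pass signals from growth factors, cytokines and stress through 3 tiers of kinases. A MAP3K phosphorylates a MAP2K, and the MAP2K phosphorylates a MAP kinase on a threonine and a tyrosine that lie close together in its activation loop. The ERK branch is driven by RAS in many colorectal tumours, and the JNK and p38 branches respond mainly to stress and inflammatory signals. Messenger RNA levels do not show whether these kinases are phosphorylated.

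The sequences of the activation loop, where each kinase receives its activating phosphates, are printed 5′ to 3′ in the sense of the gene. They were read from GENCODE v29 transcripts on GRCh38. Capitals mark the codons of the threonine-x-tyrosine motif in the MAP kinases and the codons of the 2 phosphorylated serine or threonine residues in the MAP2Ks.
MAPK8, chr10:48420242-48420271, plus strand, exon 5 of 11: tttatgatgACGCCTTATgtagtgactcgc
MAPK9, chr5:180249022-180249051, minus strand, exon 6 of 12: ttcatgatgACCCCTTACgtggtgacacgg
MAPK14, chr6:36075881-36075910, plus strand, exon 7 of 12: gatgaaatgACAGGCTACgtggccactagg
MAPK3, chr16:30118083-30118112, minus strand, exon 4 of 9: ggcttcctgACGGAGTATgtggctacgcgc
MAP2K4, chr17:12113310-12113336, plus strand, exon 7 of 11: gtggacTCTattgccaagACAagagat
MAP2K7, chr19:7911109-7911135, plus strand, exon 7 of 11: gtggacTCCaaagccaagACGcggagc
MAP2K3, chr17:21304503-21304529, plus strand, exon 8 of 12: gtggacTCTgtggccaagACGatggat
The JNK kinases MAPK8 and MAPK9 both hold threonine, proline and tyrosine at residues 183 to 185. MAPK14, a p38 kinase, holds threonine, glycine and tyrosine at residues 180 to 182, and MAPK3, the kinase ERK1, holds threonine, glutamate and tyrosine at residues 202 to 204. The MAP2Ks of the stress branches pair a serine with a threonine, at residues 257 and 261 in MAP2K4, 271 and 275 in MAP2K7 and 218 and 222 in MAP2K3.

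Several facts of the whole series bear on these genes. The deposited unit is TPM, a relative level per transcript length that adds up to nearly the same total in every library, and the read depth behind each library is unknown. TPM summed to between 991058 and 992992 in each library. Fold changes are given on the log2(TPM + 1) scale after scaling the libraries by a trimmed mean of log ratios, and p-values come from limma with adjustment over all 16901 genes tested. The scaling factors differed by -0.25 (log2, GMDS-AS1 KD minus shCtrl), and dividing by them raised the GMDS-AS1 KD values relative to shCtrl. The median log2 fold change of all tested genes was -0.0020, against -0.20 with TPM as deposited, so a small change depends on which of the 2 scales is read. GMDS-AS1, listed under its other symbol GMDS-DT, was at 1.66, 2.21 and 1.34 TPM in shCtrl, against 0.88, 0.91 and 0.79 TPM in GMDS-AS1 KD (log2 fold change -0.41, adjusted p = 0.0407 by limma), and this call was lost when any library but shCtrl library 3 was left out, with adjusted p up to 0.117 by limma, and with no filter on low values (adjusted p = 0.132 by limma). Its neighbour GMDS was at 13.9, 22.1 and 19.6 TPM in shCtrl, against 8.25, 8.12 and 9.58 TPM in GMDS-AS1 KD (log2 fold change -0.77, adjusted p = 0.00624 by limma). Of 8 colorectal epithelial markers, 6 were at 5 TPM or more in every library, while VIL1 and LGALS4 stayed under 2 TPM. The sum of these markers was 9172 to 9622 TPM in shCtrl and 3445 to 3547 TPM in GMDS-AS1 KD libraries, and the difference lay in the keratins KRT8, KRT18 and KRT19, which fell with log2 fold changes of -1.46, -1.83 and -0.26, while EPCAM (0.18), CDH1 (0.12) and CDX2 (0.02) did not pass the test. Their part in the results below was not tested. Of 8 immune, stromal and endothelial markers, 6 stayed under 2 TPM in every library and PTPRC was at 0, with sums of 21.4 to 24.3 TPM in shCtrl and 17.5 to 19.3 TPM in GMDS-AS1 KD libraries. The other 2, CD68 at 6.35 to 8.21 TPM and COL1A1 at 10.0 to 14.4 TPM, were at 5 TPM or more in every library. In RNA from a whole culture, fewer cells of one kind and less RNA per cell cannot be told apart.

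GMDS-AS1 KD cells had less mRNA of the JNK MAPK8 and of the p38 kinase MAPK14, and more of the JNK MAP2Ks MAP2K4 and MAP2K7, than shCtrl cells. The other JNK among the 9 genes, MAPK9, did not pass the test. MAPK3, MAP2K1, MAP2K2 and MAP2K3 passed it with small positive changes that rested on the scaling. At a limma adjusted p under 0.05, 2 of the 9 genes were lower and 6 were higher in GMDS-AS1 KD cells, beside 25.9% of all tested genes lower and 28.5% higher. With a change of at least 2-fold as well, 1 gene was lower (MAPK8) and 1 was higher (MAP2K7), beside 4.24% and 2.93% of all tested genes. With TPM as deposited, 3 genes were lower (MAPK8, MAPK9 and MAPK14) and 2 were higher (MAP2K4 and MAP2K7), beside 40.3% and 16.3% of all tested genes. The deposited TPM values of the groups did not overlap for these same 5 genes, in the same directions, beside 44.9% of tested genes without overlap and lower and 18.8% without overlap and higher. The median log2 fold change of the 9 genes was 0.19, and -0.05 with TPM as deposited.

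**Figure D1:**
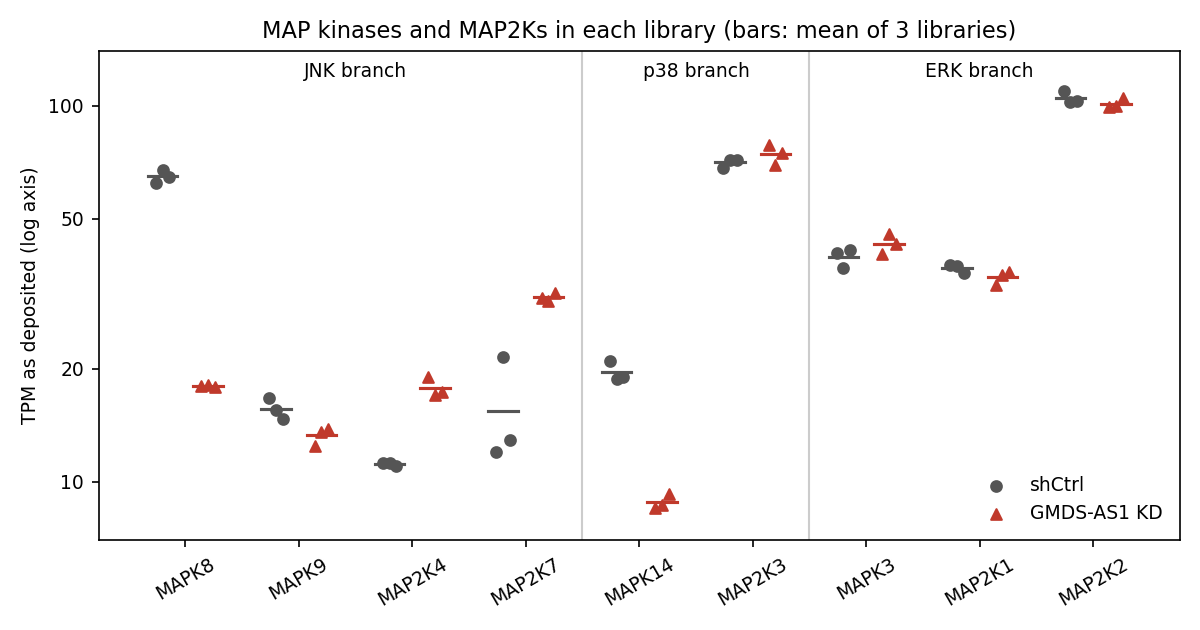
Deposited TPM of the 9 kinases (log axis) in each of 3 shCtrl (grey circles) and 3 GMDS-AS1 KD (red triangles) libraries, grouped by branch, with a bar at each mean. MAPK8 and MAPK14 sit lower in all GMDS-AS1 KD libraries, MAP2K4 and MAP2K7 sit higher, and 1 shCtrl library stands above the other two for MAP2K7.

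MAPK8, also called JNK1, phosphorylates JUN and other transcription factors under stress. Its level was 62.5, 67.6 and 64.4 TPM in shCtrl, against 18.0, 18.1 and 17.8 TPM in GMDS-AS1 KD. The groups lay far apart, and the GMDS-AS1 KD libraries differed from each other by less than the shCtrl libraries did. The group mean fell from 64.8 ± 2.61 TPM with shCtrl to 18.0 ± 0.131 TPM with the GMDS-AS1 hairpin (SD, n = 3 each), to 0.277 of the shCtrl mean. The log2 fold change came to -1.56, with a standard error of 0.043 and a limma adjusted p of 9.89e-07, with a 95% interval of -1.66 to -1.45. Of all tested genes, 149 had a lower log2 fold change. Leaving out each library in turn gave values between -1.60 and -1.54.

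MAPK9, or JNK2, is the other broadly expressed JNK and shares the activation motif of MAPK8. It was at 16.7, 15.5 and 14.7 TPM in shCtrl, against 12.5, 13.6 and 13.9 TPM in GMDS-AS1 KD. The lowest shCtrl library lay just above the highest GMDS-AS1 KD library. The means were 15.6 ± 0.997 TPM (SD, n = 3) and 13.3 ± 0.731 TPM (SD, n = 3). After scaling the log2 fold change was 0.01 (adjusted p = 0.884 by limma), with a 95% interval of -0.15 to 0.17, and with TPM as deposited it was -0.22 (adjusted p = 0.0322 by limma). The whole 95% interval of MAPK8 lay below that of MAPK9 on the scaled values.

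MAPK8 and MAPK9 were set against each other within each library, a ratio that no scaling between libraries can move. MAPK8 was 3.74 to 4.38 times MAPK9 in shCtrl libraries and 1.29 to 1.44 times MAPK9 in GMDS-AS1 KD libraries. The log2 ratio differed by -1.62, without overlap. Its p was 0.1 in a two-sided exact permutation test (0.167 adjusted over the 5 pairs compared), and 0.1 is the smallest p that this test can give with 3 against 3 libraries. With MAPK10, the JNK known mainly from neurons and heart, at 0.62 to 1.99 TPM, MAPK8 made up 78.9% ± 0.950 (SD, n = 3) of the summed JNK TPM in shCtrl cells and 55.9% ± 1.41 (SD, n = 3) in GMDS-AS1 KD cells. These sums, and those that follow, were chosen after the values were seen and carry no test.

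MAP2K4 phosphorylates JNK and also p38 kinases. It was at 11.2, 11.2 and 11.0 TPM in shCtrl, against 19.0, 17.0 and 17.3 TPM in GMDS-AS1 KD. The shCtrl values were nearly alike, and every GMDS-AS1 KD library lay above them. The group mean rose from 11.2 ± 0.104 TPM with shCtrl to 17.8 ± 1.09 TPM with the GMDS-AS1 hairpin (SD, n = 3 each). The log2 fold change came to 0.86, with a standard error of 0.058 and a limma adjusted p of 2.98e-05, and 0.63 with TPM as deposited.

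MAP2K7 is the MAP2K dedicated to JNK. It was at 12.0, 21.5 and 12.9 TPM in shCtrl, against 30.8, 30.2 and 31.8 TPM in GMDS-AS1 KD. shCtrl library 2 stood apart from the other shCtrl libraries, and every GMDS-AS1 KD library still lay above it. The means were 15.5 ± 5.26 TPM (SD, n = 3) and 30.9 ± 0.816 TPM (SD, n = 3). The log2 fold change came to 1.24, with a standard error of 0.19 and a limma adjusted p of 0.00162, with a 95% interval of 0.78 to 1.69. It was 1.46 without shCtrl library 2 and at least 1.06 without any other single library. The ratio of MAP2K4 to MAP2K7 ran from 0.522 to 0.934 in shCtrl and from 0.544 to 0.619 in GMDS-AS1 KD libraries, which overlap, and the difference of -0.38 (log2) had an exact permutation p of 0.4.

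**Figure D2:**
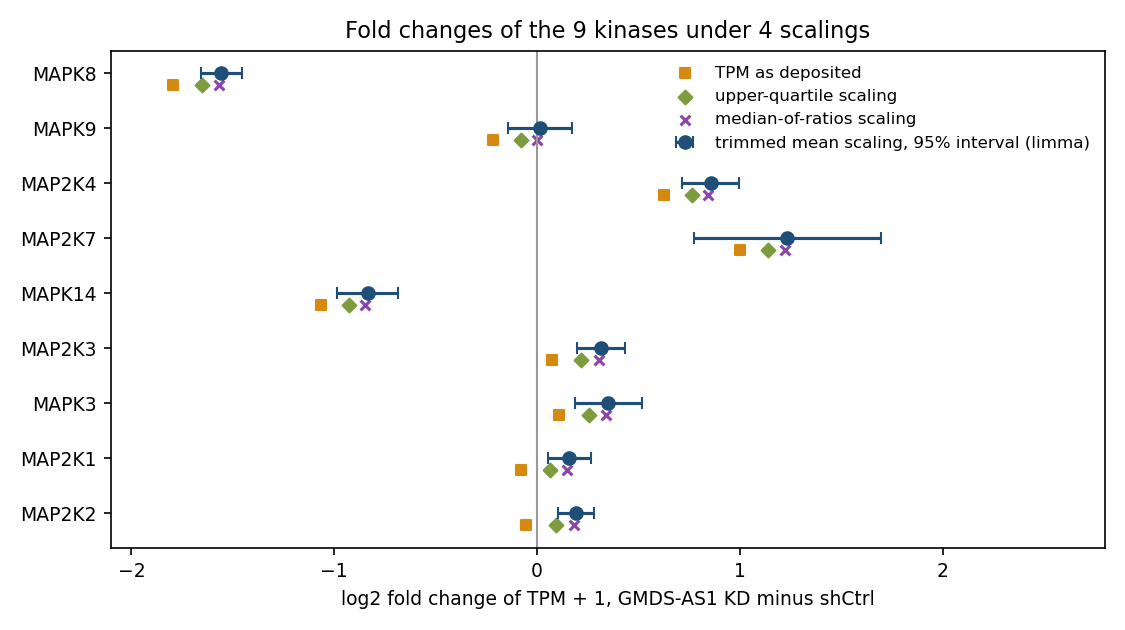
Log2 fold change of TPM + 1 (GMDS-AS1 KD minus shCtrl) of the 9 kinases, as blue points with 95% limma intervals under the trimmed mean scaling, and as orange, green and purple marks under TPM as deposited, upper-quartile and median-of-ratios scaling. MAPK8, MAPK14, MAP2K4 and MAP2K7 keep their sign under all 4 scalings, while MAPK9, MAP2K1 and MAP2K2 are negative with TPM as deposited.

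MAPK14 is p38 alpha, a stress kinase that acts on MAPKAPK2 and on transcription factors. Its level was 20.9, 18.8 and 19.0 TPM in shCtrl, against 8.51, 8.70 and 9.30 TPM in GMDS-AS1 KD. No GMDS-AS1 KD library came near the shCtrl range. The group mean fell from 19.6 ± 1.16 TPM with shCtrl to 8.84 ± 0.412 TPM with the GMDS-AS1 hairpin (SD, n = 3 each), to 0.452 of the shCtrl mean. The log2 fold change came to -0.83, with a standard error of 0.063 and a limma adjusted p of 5.04e-05, short of 2-fold, and -1.06 with TPM as deposited.

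MAP2K3 phosphorylates p38 kinases and, unlike MAP2K4, not JNK. It was at 68.2, 71.9 and 71.9 TPM in shCtrl, against 78.8, 69.7 and 74.7 TPM in GMDS-AS1 KD, and the groups overlapped. The log2 fold change came to 0.32, with a standard error of 0.049 and a limma adjusted p of 0.00158, and 0.07 with TPM as deposited, which did not pass the test (adjusted p = 0.275 by limma). MAPK14 was 0.262 to 0.306 of MAP2K3 within the shCtrl libraries and 0.108 to 0.125 of it within the GMDS-AS1 KD libraries, a difference of -1.22 (log2) without overlap (exact permutation p = 0.1, 0.167 adjusted over the 5 pairs).

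MAPK3, or ERK1, is a kinase at the end of the cascade that runs from RAS. It was at 40.5, 36.9 and 41.5 TPM in shCtrl, against 40.3, 45.5 and 42.8 TPM in GMDS-AS1 KD. The groups overlapped on the deposited scale. The log2 fold change came to 0.35, with a standard error of 0.069 and a limma adjusted p of 0.00469, and 0.11 with TPM as deposited (adjusted p = 0.176 by limma).

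MAP2K1 and MAP2K2 are MEK1 and MEK2, the MAP2Ks that activate the ERK kinases. MAP2K1 was at 37.8, 37.6 and 36.0 TPM in shCtrl, against 33.5, 35.6 and 36.1 TPM in GMDS-AS1 KD. MAP2K2, with the highest level of the 9 genes, was at 109, 102 and 103 TPM in shCtrl, against 99.0, 99.9 and 105 TPM in GMDS-AS1 KD. For both genes the groups overlapped, with the mean of the GMDS-AS1 KD libraries a little lower on the deposited scale. After scaling, the log2 fold change of MAP2K1 was 0.16 (adjusted p = 0.0187 by limma), and -0.08 with TPM as deposited (adjusted p = 0.176 by limma). That of MAP2K2 was 0.19 (adjusted p = 0.00421 by limma), and -0.05 with TPM as deposited (adjusted p = 0.307 by limma). Under upper-quartile scaling both calls were lost as well (adjusted p = 0.265 for MAP2K1 and 0.0712 for MAP2K2 by limma). The MAP2K1 call was also lost when any library but GMDS-AS1 KD library 1 was left out, with adjusted p up to 0.0922 by limma. MAP2K1 was 0.345 to 0.367 of MAP2K2 within shCtrl libraries and 0.338 to 0.356 of it within GMDS-AS1 KD libraries, which overlap, and the difference of -0.03 (log2) had an exact permutation p of 0.5. On the opposite strand MAP2K1 overlaps SNAPC5, which was at 36.0 to 46.8 TPM, and no source used here states that the counting used strand.

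**Figure D3:**
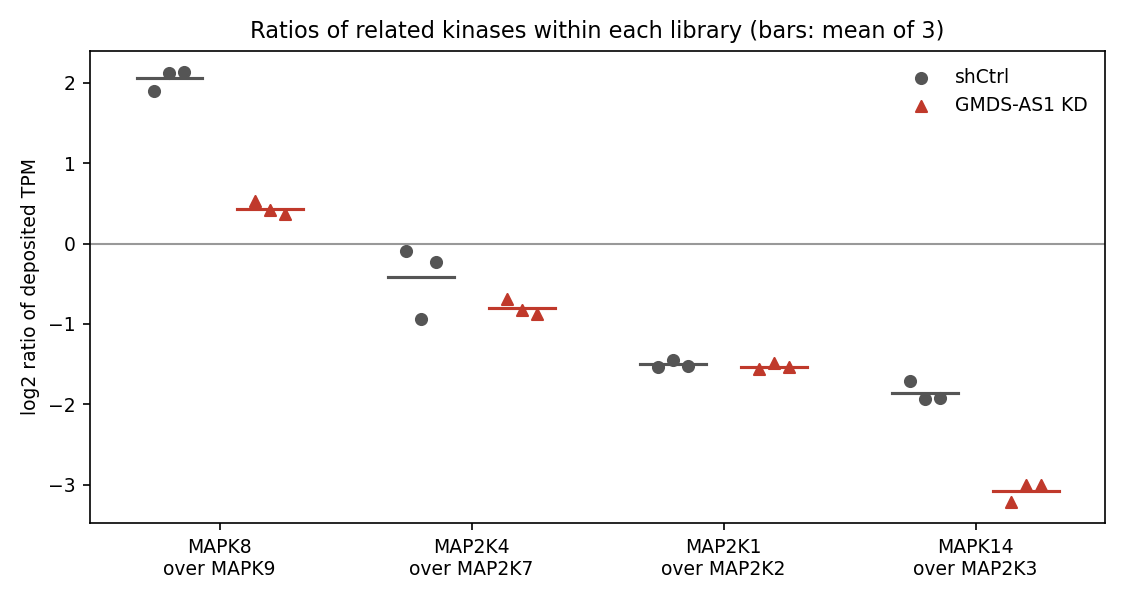
Log2 ratio of deposited TPM of related kinases within each library, with shCtrl libraries as grey circles, GMDS-AS1 KD libraries as red triangles and a bar at each mean. The groups do not overlap for MAPK8 over MAPK9 and MAPK14 over MAP2K3, and they overlap for the pairs of MAP2Ks.

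The order of the levels differed between the groups. In shCtrl cells the order by mean TPM was MAP2K2, MAP2K3, MAPK8, MAPK3, MAP2K1, MAPK14, MAPK9, MAP2K7 and MAP2K4. Within it the ranges of MAPK3 and MAP2K1 overlapped, as did those of MAPK9 and MAP2K7, and the other neighbours did not. The wide shCtrl range of MAP2K7, 11.98 to 21.52 TPM, also spanned that of MAPK14, 18.81 to 20.9 TPM. The shCtrl ranks of MAP2K7 and MAPK14 are therefore not set apart by their ranges. In GMDS-AS1 KD cells the order was MAP2K2, MAP2K3, MAPK3, MAP2K1, MAP2K7, MAPK8, MAP2K4, MAPK9 and MAPK14, and only the ranges of MAPK8 and MAP2K4 overlapped between neighbours. MAPK8 thus stood at rank 3 in shCtrl cells and rank 6 in GMDS-AS1 KD cells, MAP2K7 at ranks 8 and 5, and MAPK14 at ranks 6 and 9.

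Summed by tier, the 3 JNK kinases had less and the 2 JNK MAP2Ks had more TPM in GMDS-AS1 KD cells, without overlap between the groups. The JNK kinases MAPK8, MAPK9 and MAPK10 summed to 82.2 ± 2.56 TPM in shCtrl and to 32.1 ± 0.677 TPM in GMDS-AS1 KD (SD, n = 3 each). MAP2K4 and MAP2K7 summed to 26.6 ± 5.33 TPM in shCtrl and to 48.7 ± 1.34 TPM in GMDS-AS1 KD (SD, n = 3 each). The MAP2K total was thus 0.289 to 0.385 of the kinase total in the shCtrl libraries and 1.46 to 1.58 times it in the GMDS-AS1 KD libraries. In the p38 branch the kinases MAPK11, MAPK12, MAPK13 and MAPK14 summed to 83.7 ± 2.92 TPM (SD, n = 3) and 60.6 ± 2.45 TPM (SD, n = 3), of which MAPK14 made up 23.4% ± 1.09 and 14.6% ± 0.233 (SD, n = 3 each). The ERK MAP2Ks, at 142 ± 4.52 and 136 ± 4.31 TPM, and the p38 MAP2Ks MAP2K3 and MAP2K6, at 70.9 ± 2.16 and 74.4 ± 4.60 TPM (SD, n = 3 each), overlapped between the groups. MAP2K4, which also phosphorylates p38 kinases and was higher in GMDS-AS1 KD cells, was counted with the JNK MAP2Ks only. The overlap of the p38 MAP2K totals therefore holds for MAP2K3 and MAP2K6 without MAP2K4. On the deposited scale these totals also carry the shift of the median gene given above, while the ratios and shares within a library do not.

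**Figure D4:**
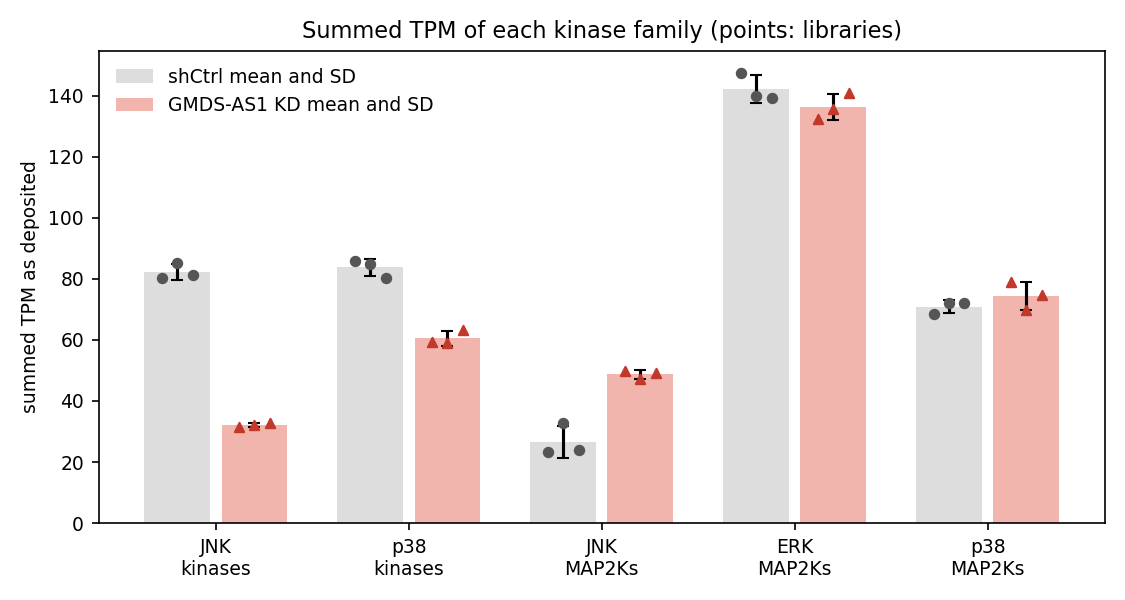
Summed deposited TPM of each kinase family, with bars for the mean, error bars for the SD over 3 libraries and points for the libraries (shCtrl grey, GMDS-AS1 KD red). The JNK kinases summed to a mean of 82.2 TPM in shCtrl and 32.1 TPM in GMDS-AS1 KD, and the JNK MAP2Ks to 26.6 and 48.7 TPM.

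The 9 genes also differ in their 3′ untranslated regions, which were read from 1 GENCODE v29 transcript per gene. The hairpin used here carries the guide strand printed next, with the seed, bases 2 to 8, in capitals.
shRNA 2 guide: tTACCATCtatctgtggtctt
shRNA 2 passenger: aAGACCACagatagatggtaa
The 7 letters that pair with the guide seed, GATGGTA, were found in none of the 9 regions, and in 6.07% of 18627 such regions of coding genes. Those that pair with the passenger seed, GTGGTCT, were found 1 time each in MAPK8, MAP2K2, MAP2K4 and MAP2K7, and in 8.53% of all regions. These 4 genes include both lower and higher ones. Their regions are 4331, 277, 2563 and 2047 bases long, in the order named, against a median of 898 over all regions. The shares were not adjusted for length. The AU-rich pentamer ATTTA, part of the elements that RNA-stability proteins such as HuR can bind, occurred 10 times in the 4331 bases of MAPK8, 12 times in the 3241 bases of MAPK9 and 4 times in the 2563 bases of MAP2K4. It occurred 3 times in MAP2K1, 1 time each in MAPK14, MAP2K3 and MAP2K7, and not in MAPK3 or MAP2K2, and 65.3% of all regions hold it (median 1, median length 898 bases). Only the strand of the mRNA was searched. MAPK8 and MAPK9, with the highest counts, differed in their change between the groups, and the part of these matches in the results was not tested.

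The genes whose pattern lay nearest to that of MAPK8 over the 6 libraries, among 10026 genes with a mean of at least 5 TPM, were TIMP1, FGF19, AXL, TRUB1 and GCH1. The measure was the Euclidean distance of scaled log2(TPM + 1) values centred on the shCtrl mean, and it was 0.064 for TIMP1, the nearest, and 0.11 for GCH1, the last of the 5. Their log2 fold changes ran from -1.58 to -1.54, beside -1.56 for MAPK8, a closeness that follows from the measure by which they were picked.

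Among the other classical MAP kinases and MAP2Ks, 6 of 7 genes were tested, 1 was lower and 0 were higher at a limma adjusted p under 0.05, and at an unadjusted p under 0.05 the counts were the same. MAPK11, the p38 beta kinase, was at 12.1, 11.8 and 10.8 TPM in shCtrl, against 3.75, 3.80 and 3.76 TPM in GMDS-AS1 KD, and fell (log2 fold change -1.19, adjusted p = 1.57e-05 by limma), the same direction as MAPK14. MAPK12 (0.12), MAPK13 (0.08), MAPK10 (-0.36), MAPK7 (-0.29) and MAP2K5 (-0.18), the last 2 being ERK5 and its activator, did not pass the test, with log2 fold changes as given. With TPM as deposited 2 genes were lower, MAPK11 and MAPK7 (log2 fold change of MAPK7 -0.51, adjusted p = 0.0288 by limma), and 0 were higher. MAP2K6, the partner of MAP2K3, was under the filter, with 0.15, 0.09 and 0.36 TPM in shCtrl, and was listed at 0 in every GMDS-AS1 KD library.

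The rest of the pathway was described by 8 further lists, and with the list above 102 of their 107 genes were tested. Of these 31 were lower and 30 higher at a limma adjusted p under 0.05 (56 and 16 with TPM as deposited), with a median log2 fold change of -0.06. These are 30.4% and 29.4% of the genes tested in the lists, near the 25.9% and 28.5% of all tested genes given above, against which the counts of each list are also to be read. Each count of 0 higher genes in these lists was also 0 at an unadjusted p under 0.05 from limma. Upstream, 2 MAP3Ks were lower and 9 higher of 22 tested (7 and 5 as deposited), where MAP3K21 rose (log2 fold change 1.24) and TAOK2, the highest of them in mean TPM, was at 0.78. Of 15 scaffolds and adaptors 1 was lower and 6 were higher (5 and 3 as deposited). LAMTOR2 was at 0.28, and at 0.03 with TPM as deposited, which did not pass (adjusted p = 0.558 by limma). Of 10 RAS and receptor-proximal genes 3 were lower and 3 higher (7 and 0 as deposited), with NRAS at -1.03. SHC1 was at -0.20 and did not pass (adjusted p = 0.0565 by limma). With TPM as deposited SHC1 was called lower (log2 fold change -0.45, adjusted p = 0.00266 by limma). Downstream, the MAP kinase phosphatases had 5 lower and 3 higher of 10 (7 and 2 as deposited), where DUSP5 had a log2 fold change of -1.66 and DUSP2 of 1.35. The MAPK-activated protein kinases had 2 lower and 5 higher of 10 tested (5 and 4 as deposited), with MKNK2, a kinase of the translation factor eIF4E, at 1.01. Of 14 transcription factor substrates 7 were lower and 2 higher (10 and 2 as deposited). JUN, the main substrate of JNK, was at 58.8, 60.2 and 60.3 TPM in shCtrl, against 16.1, 14.2 and 15.7 TPM in GMDS-AS1 KD, and the log2 fold change was -1.66 for JUN, -1.36 for FOS, -1.74 for FOSL1, -3.35 for DDIT3 and 2.14 for JUND. Of 12 ERK-induced genes 9 were lower and 2 higher (11 and 0 as deposited), with log2 fold changes of -1.10 for ETV5, -1.11 for EGR1, -1.20 for EPHA2 and -1.03 for IER3. Of 3 atypical MAP kinases tested, 1 was lower and 0 were higher (2 and 0 as deposited). NLK was the lower one (-0.97), and MAPK6, the highest in mean TPM, was at 0.04 and did not pass. With TPM as deposited MAPK6 was called lower (log2 fold change -0.20, adjusted p = 0.00352 by limma).

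**Figure D5:**
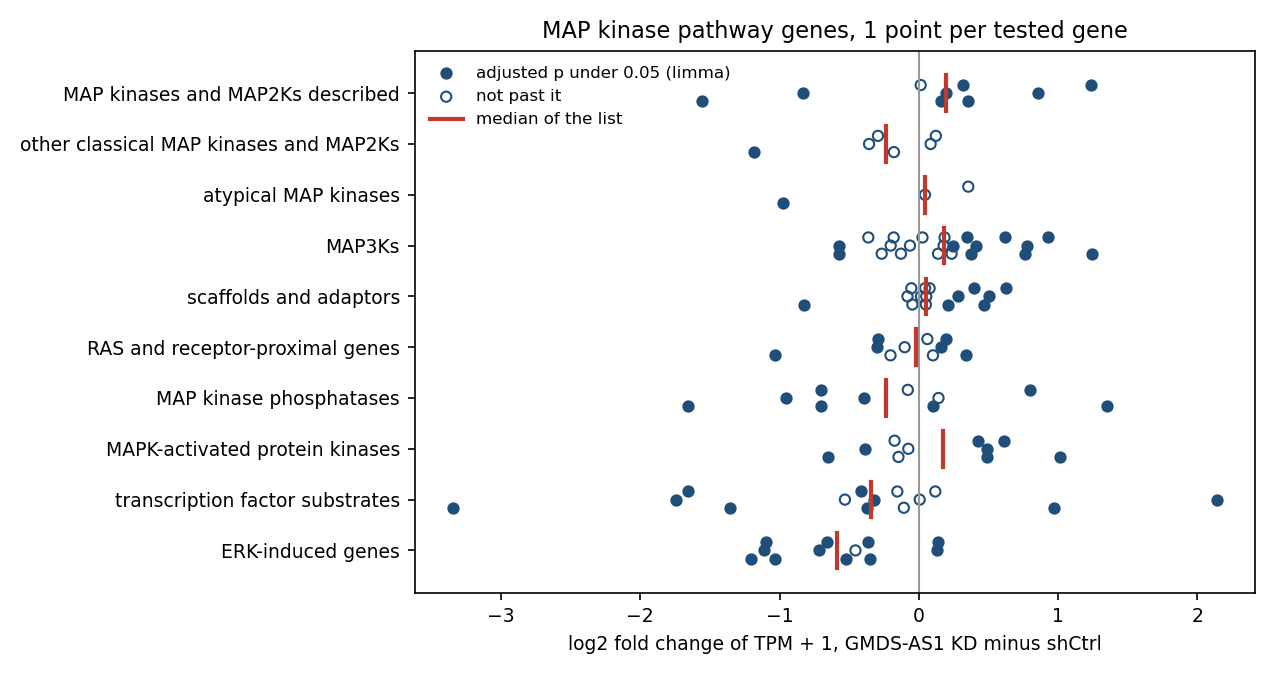
Log2 fold change of TPM + 1 (GMDS-AS1 KD minus shCtrl, trimmed mean scaling) for the 9 kinases and 9 lists of other pathway genes, 1 point per tested gene, filled where the adjusted p from limma is under 0.05, with a red line at each list's median. The ERK-induced genes have the lowest median, -0.59, and the 9 kinases span -1.56 to 1.24.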

How the data were processed

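RNA-seq was performed on 6 HCT116 libraries, 3 shCtrl and 3 GMDS-AS1 KD, grouped by their labels. The authors deposited TPM per gene for each library. The submitters' processing notes name Trimmomatic 0.27, TopHat2 2.1.1 and GRCh38.p13, the study's methods name Cufflinks, RSEM and DESeq2, and the annotation is not given in the sources used here. TPM retain no depth, so no counting interval is given, and no count test was run. The 9 genes and all lists were chosen with earlier results of these data known.

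A gene was kept if 3 or more libraries had 0.5 TPM or more of it. TPM were scaled by an unweighted trimmed mean of log ratios (30% of ratios and 5% of mean values trimmed), and log2(TPM + 1) was tested with limma 3.58.1 (R 4.3.3, variance trend, Benjamini-Hochberg adjustment). A called gene has an adjusted p under 0.05. Fold changes with a pseudocount of 1 understate changes of low genes. Ratios of deposited TPM within a library were compared by exact permutation tests over libraries. On simulated GMDS-AS1 KD and shCtrl libraries of 16423 genes, of which 200 were set to differ by 1.5 (log2), 200 of 200 changed genes and 9 unchanged genes were called. Recovery of smaller differences, or with a larger share of genes changed, was not tested. The labels call the libraries biological replicates. No deposited library was identical to another.

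The genes named are the 9 kinases, the other classical MAP kinases and MAP2Ks, and from each other list those changed at least 2-fold at an adjusted p under 0.05 and the highest in mean TPM, together with GMDS-AS1, GMDS and the 5 genes nearest to MAPK8. Of the gene identifiers, 58394 of 60662 were found in GENCODE v29, all 9 kinases included. Alternatives were other scalings, no scaling, a pseudocount of 0.1, other filters, no variance trend, a replicate block, and each library left out in turn. Some items of the lists, 1 of the 5 ratios and some sequences are not reported here.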

Additional observations from a re-analysis of the deposited data

How the results depend on the processing

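MAPK8, MAPK14, MAP2K4 and MAP2K7 kept their direction and their call under all 14 alternatives, and of 126 alternative values for the 9 kinases 109 kept both, 9 lost the call with the same sign and 8 changed sign, of which 2 (MAP2K1 and MAP2K2 with TPM as deposited) also lost the call. Among the same 8, MAPK9 with TPM as deposited gained a call (adjusted p = 0.0322 by limma). Without scaling (TPM as deposited), MAPK9 had a log2 fold change of -0.22, MAP2K1 of -0.081, MAP2K2 of -0.052, MAPK3 of 0.11, MAP2K3 of 0.072 and MAPK12 of -0.12. By construction this setting omits the scaling factor between the groups. On that scale 2 of the 9 kinases were higher, 56 other pathway genes were lower and 16 higher, and 6814 of all tested genes were lower and 2756 higher. With upper-quartile scaling the values were -0.079 for MAPK9, 0.064 for MAP2K1 and 0.095 for MAP2K2, and the last 2 no longer passed. Single-library omissions gave -0.038 to 0.061 for MAPK9 and 0.13 to 0.20 for MAP2K1, whose adjusted p from limma ran from 0.0112 to 0.0922, and the number of the 9 kinases called higher was 5 to 6. Every other count stayed within 1.5 times its main value, and the 35 alternative values of the 5 ratios kept their direction.

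The replicate block called 8631 genes against 9182 without it, 8365 of them shared, and changed no call among the 9 kinases, while the adjusted p of GMDS-DT from limma rose to 0.0518. Same-numbered libraries did not deviate together (correlations of -0.038 to 0.029 in 3 pairs), so the numbers were not read as pairs. The depth behind TPM is unknown, and the two-sided exact permutation test used here cannot go below 0.1 with 3 against 3 libraries.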
